A study of Mus musculus with 14 samples.

Results

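Cell cycle genes of the mouse mammary gland are described here, with Mad2l1 in the centre: 40 genes were listed by their role, and 39 of them were measured among 18193 genes. A gene was taken by its probe set with a single gene symbol and, of several, by the one with the highest mean over all arrays; Ccnb1 had no such probe set. The 39 genes comprised 19 mitotic genes and 20 genes of G1 and S phase, and 6 of them (Bub1, Aurkb, Kif20a, Ccne2, Cdc6 and Tyms) were dim, with a mean below the 40 percentile of all probe sets (6.65 on the log2 scale). Expression was read on 14 Affymetrix arrays from ovariectomized C57BL/6 females, 11 to 12 weeks old on arrival and acclimatized for 1 week. All mice, controls included, had lost their ovaries 7 days before treatment, and glands were taken 3 h after it, so the vehicle level is that of an estrogen-deprived gland. The 10 groups received vehicle, 17-beta-estradiol (E2), one of the estrogen receptor blockers acolbifene (EM-652.HCl), tamoxifen citrate, raloxifene and fulvestrant, or E2 together with one blocker. There were 2 arrays for each of vehicle, E2, acolbifene and their combination E2+acolbifene and 1 array for each of the other 6 groups, and the glands of the 8 mice of a group were pooled.

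The mammary gland of a mouse without ovaries is largely resting, and estrogen is known to drive its epithelium into the cell cycle. D-type cyclins with Cdk4 and then cyclin E with Cdk2 carry a cell through G1, the Mcm proteins license replication origins, and cyclins A and B with Cdk1 bring about mitosis. In mitosis the spindle checkpoint, of which Mad2l1 (the protein MAD2) is the central inhibitor, holds back the anaphase activator Cdc20 until every chromosome is attached to the spindle.

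Array medians lay between 7.16 and 7.23. Raw-file names carried a code whose meaning is not stated: E2 array 1 and the 6 single arrays had R136, and the other 7 arrays R137. Both arrays of a replicated group carried the same sample name in those files, so the names do not show separate pools. P-values reflect the spread of arrays alone, a spread that may be technical. The raloxifene array carried the same sample name as the E2+acolbifene arrays apart from that code. The mean of 9 hybridization control spikes was 9.57 to 9.81 on both E2 arrays and the single arrays and 10.0 to 10.2 on the remaining 6 arrays. Markers of the tissue were present: the median of the 8 measured luminal epithelial markers was 9.90 to 10.4 over the arrays, that of 6 basal markers 8.89 to 9.36 and that of 6 adipocyte markers 12.2 to 12.7. The median of 8 skeletal muscle markers relative to vehicle was -0.82 on E2 array 1 and 0.46 on E2 array 2. Arrays of the other replicated groups lay closer together. They were -0.01 and 0.01 with vehicle, 0.01 and -0.04 with acolbifene, and 0.75 and 0.64 with E2+acolbifene. The part of muscle in the E2 comparisons was not tested. In pooled bulk tissue fewer cells of a type and less RNA per cell cannot be told apart.

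Mad2l1 was high on the arrays that received E2 alone or E2 with tamoxifen, intermediate with E2 and fulvestrant, and low on the rest. Its log2 level was 8.14 and 8.30 on the vehicle arrays and 9.90 and 9.78 on the E2 arrays. With acolbifene alone it was 8.39 and 8.15, and with E2+acolbifene 8.42 and 8.51. Blockers given alone left it at 8.52 (tamoxifen), 8.55 (raloxifene) and 8.51 (fulvestrant). With E2 it stood at 9.69 beside tamoxifen, 9.11 beside fulvestrant and 8.70 beside raloxifene. The 2 E2 arrays lay above all 12 others, followed by E2+tamoxifen and E2+fulvestrant, whereas the other 10 arrays lay within 8.14 to 8.70. The spikes averaged 9.72 and 9.75 on the E2 arrays, and 9.81, 9.57 and 9.77 on the arrays of tamoxifen, raloxifene and fulvestrant alone, where Mad2l1 was 8.51 to 8.55; their part in the Mad2l1 levels was not tested.

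**Figure D1:**
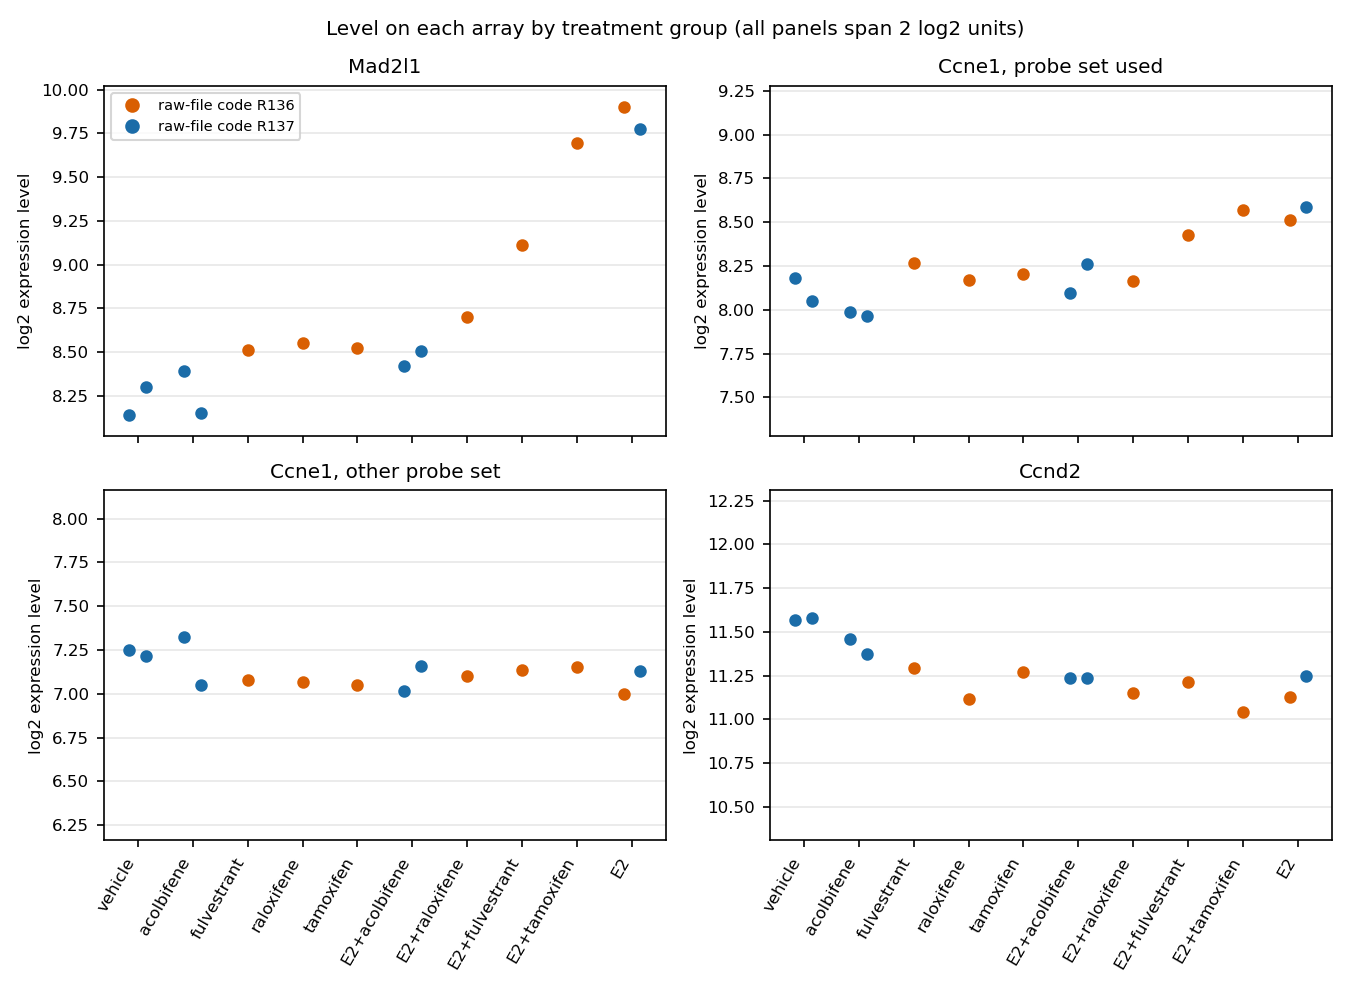
Log2 expression level (vertical axis, each panel spanning 2 log2 units) on each array by treatment group (horizontal axis) for Mad2l1, both probe sets of Ccne1 and Ccnd2; each point is 1 array, coloured by raw-file code. Mad2l1 and the Ccne1 probe set used are highest with E2 and with E2+tamoxifen, and Ccnd2 is highest on the 2 vehicle arrays.

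E2 raised Mad2l1 3.07-fold over vehicle (log2 difference 1.62 ± 0.11, SE, 95% interval 1.38 to 1.85, 2 arrays per group, limma adjusted p = 1.48e-05). With E2+acolbifene it was lower than with E2 by a log2 difference of -1.38 ± 0.11 (interval -1.61 to -1.14, limma adjusted p = 0.000265). The effect of E2 itself was smaller in the presence of acolbifene, with a difference of the effects of -1.43 ± 0.15 (interval -1.76 to -1.10, limma adjusted p = 0.00168). These comparisons share the E2 arrays. By E2 array 2 alone, which carries the code of the vehicle arrays, the rise was 1.56. The spikes averaged 9.75 on that array and 10.06 and 10.14 on the vehicle arrays, so this value does not set aside the difference in spikes. Acolbifene alone differed from vehicle by 0.05 (interval -0.18 to 0.29, limma adjusted p = 0.857), and E2+acolbifene differed from vehicle by 0.24 (interval 0.01 to 0.48, limma adjusted p = 0.247) and from acolbifene by 0.19 (interval -0.04 to 0.42, limma adjusted p = 0.253). The median of the basal epithelial markers stood 0.45 and 0.37 above vehicle on the E2 arrays and 0.02 to 0.33 above it on the other treated arrays, and its part in the rise was not tested.

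The other blockers had 1 array each, and no dose of theirs is stated in the labels used here, so their values stand side by side without a comparison between compounds. Tamoxifen left an E2 rise of 1.17 (E2+tamoxifen minus tamoxifen, interval 0.83 to 1.51, limma adjusted p = 0.0264), and E2+tamoxifen minus E2 was -0.21 (interval -0.55 to 0.14, limma adjusted p = 0.547). With raloxifene the E2 difference was 0.15 (interval -0.19 to 0.50, limma adjusted p = 1.00), and E2+raloxifene minus E2 was -1.20 (interval -1.54 to -0.86, limma adjusted p = 0.0304). With fulvestrant the E2 difference was 0.60 (interval 0.25 to 0.94, limma adjusted p = 0.260), and E2+fulvestrant minus E2 was -0.79 (interval -1.13 to -0.45, limma adjusted p = 0.422). Against vehicle, Mad2l1 differed by 0.18 with tamoxifen, 0.20 with raloxifene and 0.17 with fulvestrant (limma adjusted p = 0.996 to 0.997). Without the raw-file code in the fit these differences were 0.30, 0.33 and 0.29 (limma adjusted p = 0.285 to 0.366). These fits assume that a single array varies like the replicated groups. The call for raloxifene was lost without either vehicle array (limma adjusted p = 0.0544) or either E2+acolbifene array (0.0590), and that for tamoxifen without either E2+acolbifene array (0.0516), none of which enters the difference itself.

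**Figure D2:**
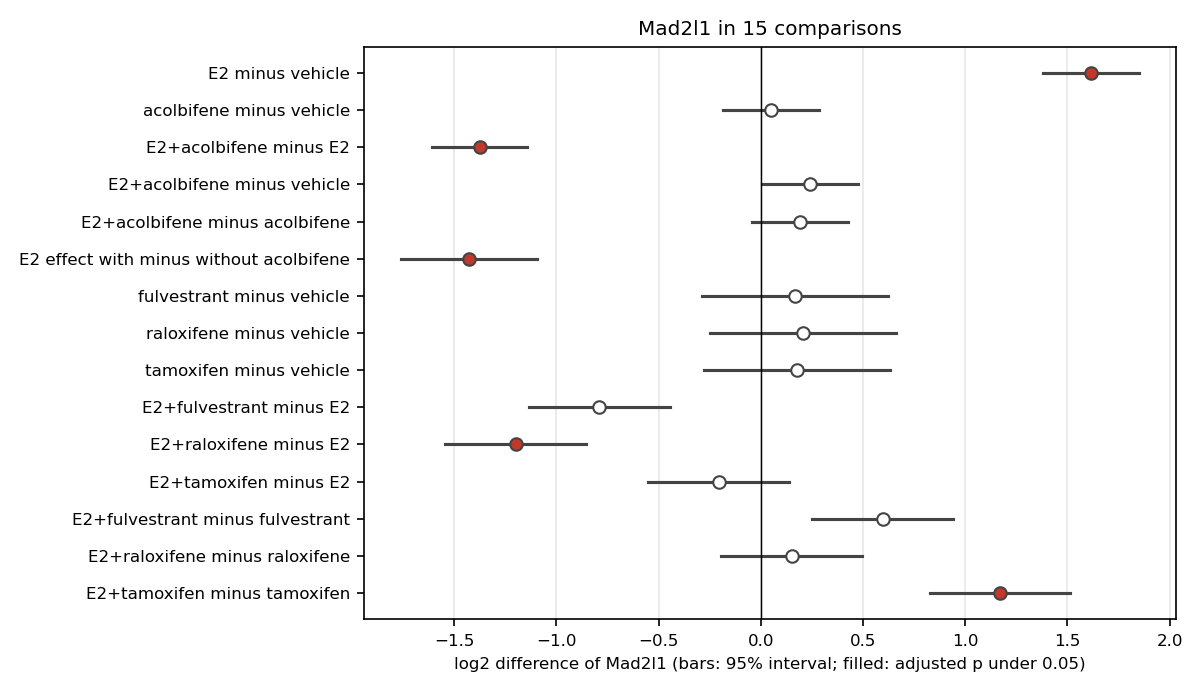
Log2 difference of Mad2l1 (horizontal axis) in 15 comparisons (rows); points are the estimates of the limma fits, bars their 95% intervals, and filled points passed adjusted p under 0.05. E2 minus vehicle lies at 1.62 and E2+tamoxifen minus tamoxifen at 1.17, while the blockers alone minus vehicle lie between 0.05 and 0.20.

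The start of Mad2l1 is shown with those of Ccne1, the other member that rose with E2, and Cdk1, a mitotic gene that did not pass the test, because mitotic genes are known to share promoter elements. The 250 bases before each start are from RefSeq (GRCm38.p6): Mad2l1 chr6:66534971-66535220 on the plus strand, Ccne1 chr7:38107491-38107740 and Cdk1 chr10:69352913-69353162 on the minus strand. Capitals mark a near match to an estrogen response element in Mad2l1 and, in Cdk1, a pair of CHR elements, 3 CCAAT boxes that read from the other strand and an E2F site; Ccne1 held none of the motifs searched.
Mad2l1: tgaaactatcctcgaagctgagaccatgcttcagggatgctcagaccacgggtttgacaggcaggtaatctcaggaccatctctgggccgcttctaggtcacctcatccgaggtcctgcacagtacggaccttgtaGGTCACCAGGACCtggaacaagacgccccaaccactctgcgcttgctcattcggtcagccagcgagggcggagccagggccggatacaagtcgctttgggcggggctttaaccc
Ccne1: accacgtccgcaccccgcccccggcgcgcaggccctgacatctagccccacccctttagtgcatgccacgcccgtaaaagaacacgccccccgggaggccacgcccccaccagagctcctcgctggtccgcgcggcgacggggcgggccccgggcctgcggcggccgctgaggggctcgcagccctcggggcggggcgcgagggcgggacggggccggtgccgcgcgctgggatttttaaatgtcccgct
Cdk1: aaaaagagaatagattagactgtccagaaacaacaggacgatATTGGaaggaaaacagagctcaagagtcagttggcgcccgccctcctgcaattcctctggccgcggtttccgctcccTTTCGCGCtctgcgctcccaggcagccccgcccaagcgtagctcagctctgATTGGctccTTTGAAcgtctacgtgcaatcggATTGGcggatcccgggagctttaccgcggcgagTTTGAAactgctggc

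Motifs were counted on both strands from 250 bases before to 50 after the start, a window that 32 of the 39 members had (16 mitotic, 16 of G1 and S). The CHR element (TTTGAA), an element of genes expressed in G2 and M, was in 12 of 16 mitotic windows (75.0%), in 1 of 16 windows of G1 and S genes (6.25%, Mcm2) and in 20.2% of the windows of 27025 genes. Mad2l1, Bub1, Birc5 and Cenpe were the mitotic members without it. CCAAT was in 87.5% of the mitotic windows, 62.5% of those of G1 and S genes and 41.1% of all. E2F sites (TTTNNCGC, each N being C or G) were in 6.25%, 43.8% and 2.61%, and AP-1 sites (TGANTCA) in 0 of 32 members and 8.97% of all genes. Mad2l1 held none of these. The full estrogen response element, GGTCA and TGACC parted by 3 bases of any kind, was in 0 of 32 members and 0.0740% of all windows. With at most 1 mismatch, a search added after the Mad2l1 window had been read, it was in Mad2l1 alone among members and in 0.995% of all windows. The match lies 114 to 102 bases before the start, at chr6:66535107-66535119, and differs by T9G, counted from 1 at the 5′ end of the element. These letters are a description of the windows and no measure of binding.

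**Figure D3:**
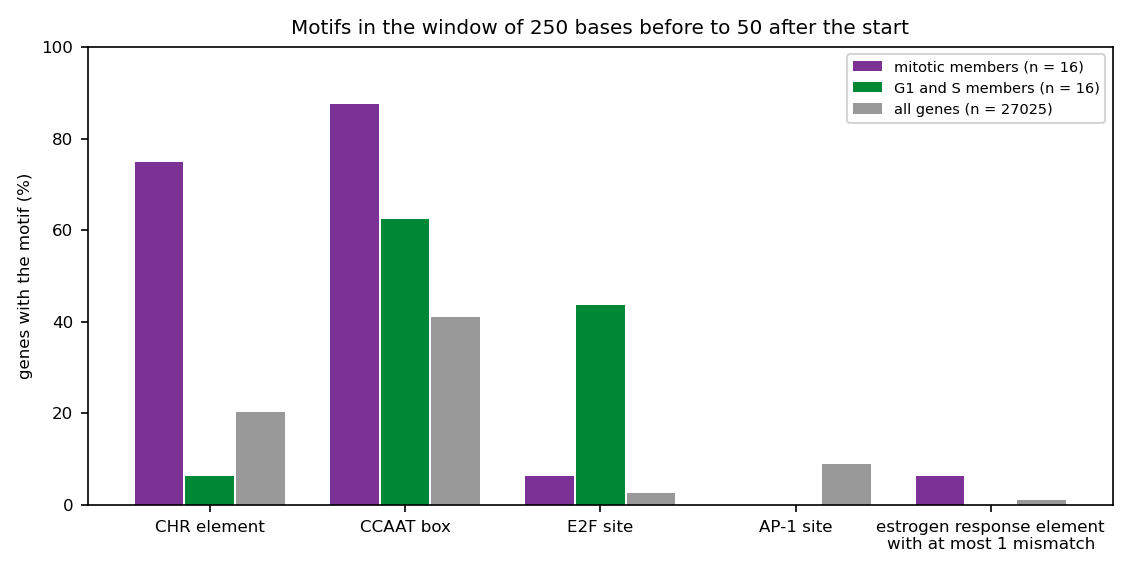
Percent of genes whose window of 250 bases before to 50 after the start holds a motif (vertical axis) for 5 motifs (horizontal axis), in 16 mitotic members, 16 members of G1 and S phase and all 27025 genes. The CHR element reaches 75.0% in mitotic members against 20.2% in all genes, and the E2F site 43.8% in members of G1 and S phase against 2.61%.

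Besides Mad2l1, Ccne1 rose and Ccnd2 fell 3 h after E2. limma thus called 3 of 39, beside 3.95% of all genes called. An unadjusted p under 0.05 was found for 9 of 39 (23.1%), beside 19.7% of all genes, shares close to each other. The median log2 difference of the 39 members was 0.01, and that of all genes -0.02.

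Among the spindle checkpoint genes, Mad2l1 was the member called. Bub1b, which with Mad2l1 forms the inhibitor of Cdc20, lay between 7.75 and 8.01 over all 14 arrays, and the kinetochore protein Bub3 between 10.78 and 11.17. Ttk, the kinase that starts the checkpoint, spanned 6.73 to 7.35, with 7.21 and 6.79 on the E2 arrays and 7.01 and 7.21 on the vehicle arrays. The E2 arrays overlapped the vehicle arrays for each of these genes. Cdc20, the target of Mad2l1, was 7.74 and 7.57 with E2 and 7.71 and 7.81 with vehicle. None of the mitotic kinases Aurka, Aurkb and Plk1 and none of Ccna2, Ccnb2 and Cdk1 was called after E2; Cdk1 was 8.85 and 8.87 with E2 and 8.82 and 8.73 with vehicle. Mki67, the proliferation antigen Ki-67, was 8.88 and 8.70 with E2 and 8.73 and 8.60 with vehicle, and its arrays overlapped.

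The kinetochore motor Cenpe and the kinetochore protein Cenpf were above both vehicle arrays on all 12 others, with or without E2, as were 2.46% of all genes. Cenpf was 7.66 and 7.64 with vehicle, 7.90 and 7.85 with E2, 8.22 and 7.97 with acolbifene and 7.67 and 7.78 with E2+acolbifene, and 7.83 to 7.94 on the single arrays. Neither gene passed the test for E2 (Cenpe 0.30, limma adjusted p = 0.186; Cenpf 0.22, limma adjusted p = 0.249). Birc5, the inhibitor of apoptosis survivin of the chromosomal passenger complex, differed by 0.28 (limma adjusted p = 0.231).

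**Figure D4:**
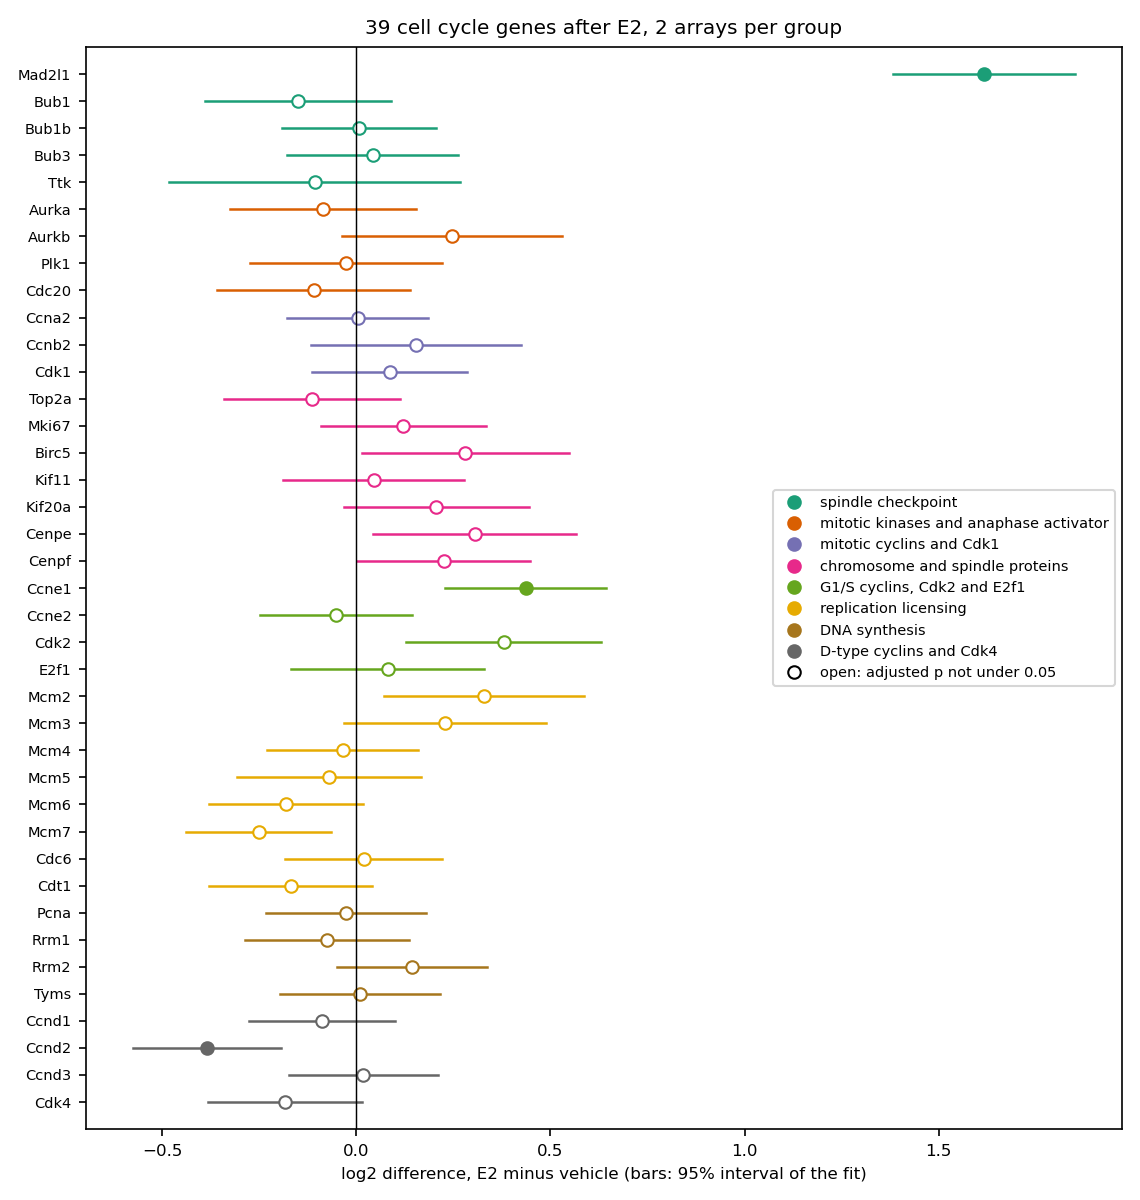
Log2 difference E2 minus vehicle (horizontal axis) of the 39 cell cycle genes (rows, coloured by role), 2 arrays per group; bars are 95% intervals of the limma fit and filled points passed adjusted p under 0.05. Mad2l1 stands at 1.62, and the other 38 genes lie between -0.38 and 0.44.

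Ccne1, cyclin E1 of the G1/S transition, was the member whose level followed Mad2l1 most closely. It was 8.18 and 8.05 with vehicle, 8.52 and 8.59 with E2, 7.98 and 7.97 with acolbifene, and 8.09 and 8.26 with E2+acolbifene. On the single arrays it was 8.57 with E2+tamoxifen, 8.43 with E2+fulvestrant and 8.17 with E2+raloxifene, and 8.20, 8.27 and 8.17 with tamoxifen, fulvestrant and raloxifene alone. The E2 and E2+tamoxifen arrays were the highest, as for Mad2l1. E2 raised it by 0.44 ± 0.09 (limma adjusted p = 0.0291), and E2+acolbifene minus E2 was -0.37 (limma adjusted p = 0.0523). The E2 call was lost without any one of the vehicle or E2 arrays (0.37 to 0.50, limma adjusted p = 0.0919 to 0.143) and with the code as a term (0.47, adjusted p = 0.108). The other probe set of Ccne1 differed by -0.17 (limma adjusted p = 0.420), and the one used is of the _x_at kind, some of whose probes may match other transcripts.

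Cdk2, the partner of cyclin E, was 8.65 and 8.78 with vehicle, 9.04 and 9.15 with E2, and 8.89 and 8.55 with E2+acolbifene. Its difference of 0.38 after E2 did not pass the test (limma adjusted p = 0.0947). Over the 14 arrays Pearson's r with Mad2l1 was 0.92 for Ccne1, 0.53 for Cdk2 and 0.45 for the spindle motor Kif11, the highest of the members, and lowest for Ccnd2 (-0.64), Mcm7 (-0.64) and Ccnd1 (-0.56); arrays of a group and of a code are shared by these points.

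Ccnd2, the D-type cyclin D2, was lower than vehicle on every other array by the probe set used. It was 11.56 and 11.58 with vehicle, 11.13 and 11.25 with E2, 11.46 and 11.38 with acolbifene, and 11.23 and 11.24 with E2+acolbifene. The single arrays lay between 11.04 (E2+tamoxifen) and 11.29 (fulvestrant). All 12 treated arrays were thus below both vehicle arrays, as were 4.30% of all genes. E2 lowered it by a log2 difference of -0.38 ± 0.09 (limma adjusted p = 0.0353). Its 6 other probe sets were lower with E2 too (-0.37 to -0.14), none of them called. Most of them did not place every treated array below both vehicle arrays. For one, E2 array 2 was 9.65, with vehicle at 9.62 and 9.59. For another, acolbifene array 1 was 7.49, with vehicle at 7.46 and 7.36. The call was lost without any one of the vehicle, E2 or E2+acolbifene arrays (-0.45 to -0.32, limma adjusted p = 0.0538 to 0.192) and with the code as a term (adjusted p = 0.192). The median of 8 measured lymphocyte markers was below vehicle on the same 12 arrays (-0.48 to -0.15), and its part was not tested.

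By the probe sets used, the other D-type cyclins and Cdk4, the kinase they activate, were called in none of the 15 comparisons. Ccnd1, cyclin D1, was 10.48 and 10.56 with vehicle, 10.38 and 10.48 with E2, 10.59 and 10.59 with acolbifene and 10.38 and 10.37 with E2+acolbifene, and 10.24 to 10.49 on the single arrays. Its difference after E2 was -0.09 (interval -0.28 to 0.10, limma adjusted p = 0.610). Other probe sets of Ccnd1 did not go together. One was 8.27 and 8.26 with vehicle, 7.50 and 8.01 with E2, and 7.68 to 7.87 on the single arrays. Another was 9.98 and 9.94 with vehicle and 9.87 and 10.14 with E2. Ccnd3 was 10.69 and 10.62 with vehicle, 10.62 and 10.73 with E2, 10.88 and 10.85 with acolbifene and 10.62 and 10.54 with E2+acolbifene, and 10.49 to 10.65 on the single arrays. Its acolbifene arrays were the highest of the 14 by the probe set used, but not by its other probe sets. By one of those they were 7.78 and 7.97, with vehicle at 7.92 and 7.94. By another they were 8.06 and 8.02, with E2+acolbifene at 8.10 and 7.95. Cdk4 was 9.99 and 9.97 with vehicle and 9.88 and 9.71 with E2, a difference of -0.18 (limma adjusted p = 0.288).

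Acolbifene alone moved no member past the test: limma called 0 of 39, beside 0.786% of all genes, and 5 of 39 (12.8%) had an unadjusted p under 0.05, beside 17.5% of all genes. Those 5 (Aurka, Aurkb, Cenpe, Cenpf and Ccnd3) were higher, with Cenpf at 0.45 (limma adjusted p = 0.0767). For E2+acolbifene against vehicle limma again called 0 of 39, beside 1.09% of all genes, with 11 (28.2%) at an unadjusted p under 0.05 (2 higher, 9 lower). Of all genes 21.9% had such a p (1713 higher, 2266 lower).

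With E2+acolbifene, 3 helicase subunits, a topoisomerase and a kinetochore gene were lower than with acolbifene alone. limma called these 5 of 39 members, beside 11.6% of all genes called, a share close to that of the members, and the members' median difference was -0.19 beside -0.04 for all genes. Of these, Mcm4, Mcm3 and Mcm6 are subunits of the replicative helicase, Top2a is the topoisomerase that untangles chromosomes, and Cenpf belongs to the kinetochore. Mcm4 was 9.58 and 9.44 with acolbifene, 9.03 and 9.03 with E2+acolbifene, 9.31 and 9.36 with vehicle, 9.26 and 9.34 with E2, and 8.99 to 9.21 on the single arrays. Its difference was -0.48 ± 0.09 (limma adjusted p = 0.0171), and its groups did not overlap. Mcm6 was 9.57 and 9.70 with acolbifene, 9.32 and 9.23 with E2+acolbifene, 9.49 and 9.58 with vehicle, 9.39 and 9.32 with E2, and 9.22 to 9.50 on the single arrays (difference -0.36, limma adjusted p = 0.0376). Top2a was 8.60 and 8.35 with acolbifene, 8.09 and 8.02 with E2+acolbifene, 8.21 and 8.36 with vehicle, 8.20 and 8.15 with E2, and 7.93 to 8.30 on the single arrays (difference -0.42, limma adjusted p = 0.0357). For Cenpf, whose levels are given above, the difference was -0.37 (limma adjusted p = 0.0458). In each of the 5 the acolbifene arrays lay above both E2+acolbifene arrays.

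Leaving out acolbifene array 1 or either E2+acolbifene array ended all 5 of these calls (limma adjusted p = 0.0627 to 0.241), as did a repeated quantile normalization (0.0508 to 0.213). Other probe sets of Mcm4 (-0.19), Mcm6 (-0.27 and 0.08), Cenpf (0.11 and -0.03) and Top2a (0.16 and 0.12) were not called. The median of 6 macrophage markers relative to vehicle was 0.28 and 0.29 with acolbifene and -0.10 and -0.13 with E2+acolbifene. That of 8 skeletal muscle markers was 0.01 and -0.04 with acolbifene and 0.75 and 0.64 with E2+acolbifene, and that of 5 keratinocyte markers -0.47 and -0.32, and 0.32 and 0.41. The part of these cells in the differences was not tested.

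Mcm3 was 8.58 and 8.67 with vehicle, 8.82 and 8.88 with E2, 8.98 and 8.65 with acolbifene, 8.48 and 8.26 with E2+acolbifene, and 8.36 to 8.65 on the single arrays. Both E2+acolbifene arrays were below the vehicle, E2 and acolbifene arrays. It was lower with E2+acolbifene than with acolbifene (-0.45, limma adjusted p = 0.0416) and than with E2 (-0.48, limma adjusted p = 0.0490), where limma called 2 of 39 members (Mad2l1 and Mcm3) beside 3.74% of all genes. The call against E2 was lost without any one of the vehicle, E2 or E2+acolbifene arrays (limma adjusted p = 0.0620 to 0.262). Another, dim probe set of Mcm3 was higher with E2+acolbifene than with acolbifene (0.48, limma adjusted p = 0.0349). Its other probe sets that were not dim gave 0.04, -0.26 and -0.15 there and were not called. Against E2 the other probe sets gave -0.29 to 0.45, none of them called. The E2 effect differed with acolbifene in 3 of 39 members, all lower, beside 5.12% of all genes: Mad2l1, Mcm3 (-0.68, limma adjusted p = 0.0469) and Cenpf (-0.59, limma adjusted p = 0.0435). Without any one of the vehicle or E2 arrays, acolbifene array 1 or E2+acolbifene array 1 or 2, Mcm3 and Cenpf were no longer called there (limma adjusted p = 0.0567 to 0.159).

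**Figure D5:**
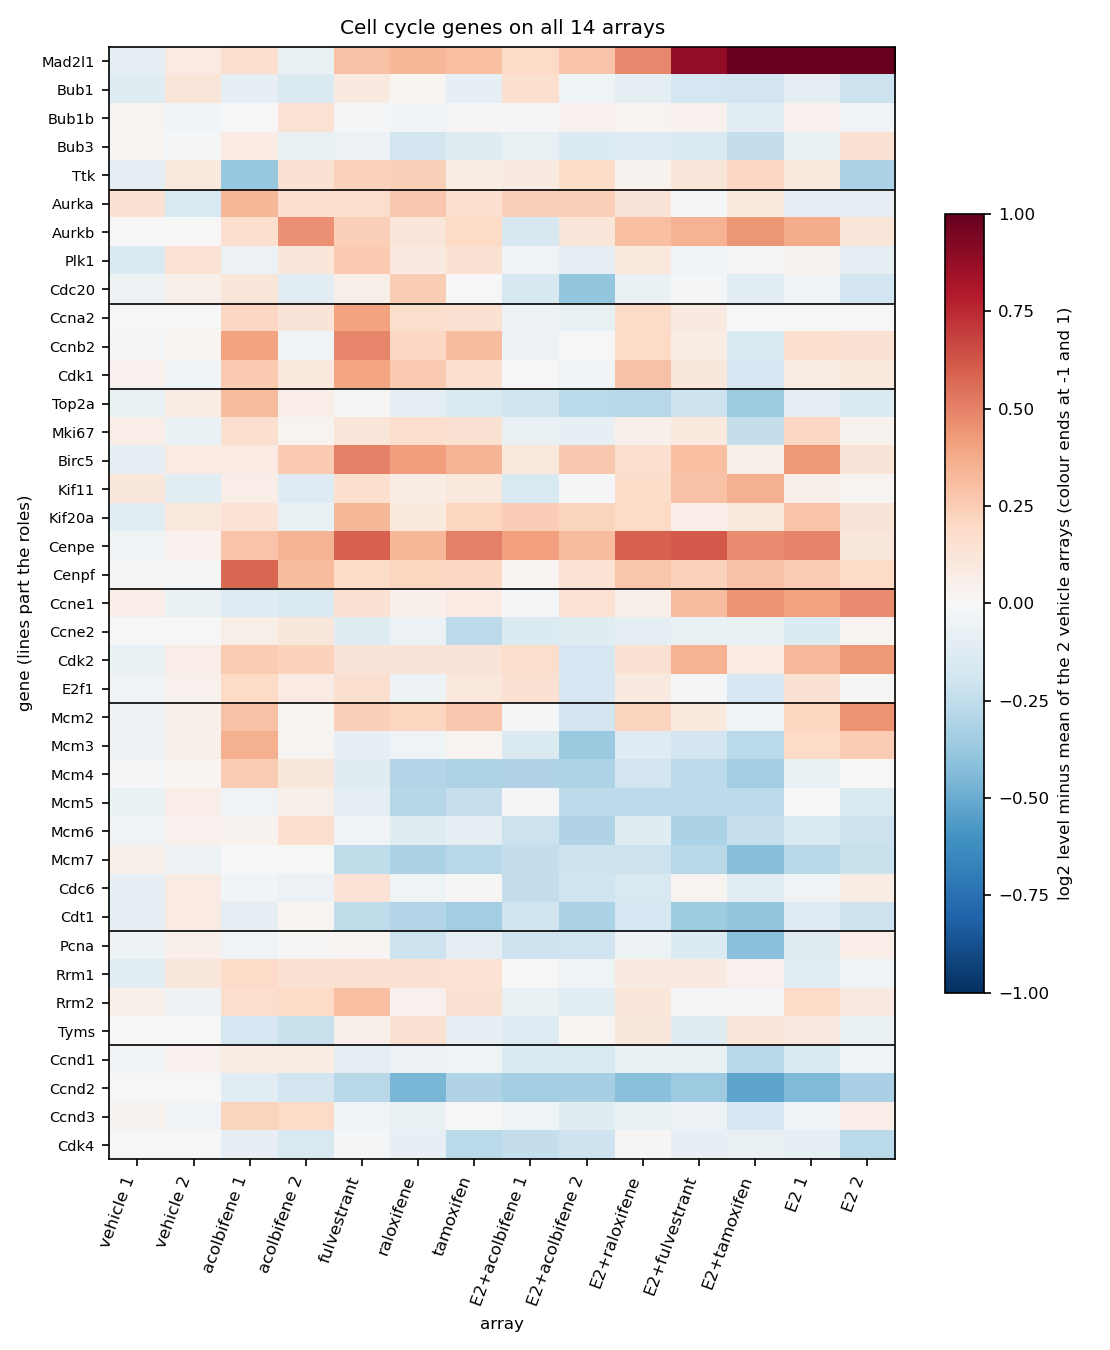
Log2 level minus the mean of the 2 vehicle arrays (colour, ending at -1 and 1) for 39 cell cycle genes (rows, parted by role) on 14 arrays (columns). The strongest colour is that of Mad2l1 on the E2, E2+tamoxifen and E2+fulvestrant arrays. The licensing genes Mcm3, Mcm4 and Mcm6 are below vehicle with E2+acolbifene and also with E2+tamoxifen, E2+fulvestrant and E2+raloxifene. Each of these genes is below it on some other arrays too, Mcm3 with fulvestrant alone (8.54) and raloxifene alone (8.58), beside a vehicle mean of 8.62.

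On the single arrays limma called Mad2l1 and no other member. The counts were 1 of 39 for E2+raloxifene minus E2, beside 0.121% of all genes called, and 1 of 39 for E2+tamoxifen minus tamoxifen, beside 0.181%. They were 0 of 39 for fulvestrant (0.247% of all genes), raloxifene (0.0055%) and tamoxifen (0.0165%) minus vehicle, with 3, 0 and 3 members at an unadjusted p under 0.05, beside 5.29%, 4.46% and 4.64% of all genes. They were also 0 for E2+fulvestrant minus E2 (0.0110%) and minus fulvestrant (0.599%), E2+tamoxifen minus E2 (0.0055%) and E2+raloxifene minus raloxifene (0.0715%), with 1, 3, 4 and 0 members at an unadjusted p under 0.05, beside 3.62%, 8.44%, 14.1% and 4.41% of all genes. The median of the members relative to vehicle was -0.11 with E2+tamoxifen and 0.13 with fulvestrant alone, its lowest and highest values on the single arrays.

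Among 115 other measured cell cycle genes, limma called 3 after E2, all higher, beside 3.95% of all genes called, and 26 (22.6%) had an unadjusted p under 0.05 (15 higher, 11 lower), beside 19.7% of all genes. They were Cdkn1a, the Cdk inhibitor p21 (1.04, limma adjusted p = 0.000413), the growth-promoting transcription factor Myc (0.48, limma adjusted p = 0.0274) and Prc1, a protein of the central spindle (0.48, limma adjusted p = 0.0232). Cdkn1a was also higher with acolbifene alone (0.83, limma adjusted p = 0.00708) and with E2+acolbifene (0.57, limma adjusted p = 0.0365) than with vehicle, as the 1 gene of the 115 called in each, beside 0.786% and 1.09% of all genes. The first count was 0 without vehicle array 1 or either acolbifene array, and the second without any one of the vehicle, acolbifene or E2+acolbifene arrays. With E2+acolbifene against E2, where 3.74% of all genes were called, the 5 called were the Cdk-binding protein Cks1b (-0.48), Cdkn1a (-0.47), Myc (-0.45), the chromosome motor Kif22 (-0.37) and the spindle assembly factor Tpx2 (0.72; limma adjusted p = 0.0200 to 0.0405 for the 5). Without either E2 or either E2+acolbifene array 0 to 1 of the 115 were called there. Against acolbifene 19 were called (5 higher, 14 lower), beside 11.6% of all genes, and E2f5 (0.78), Fen1 (0.60), Tpx2 (0.57), Kif15 (0.53) and Ncapd2 (-0.52) had the largest differences. That count fell to 0 to 3 without either acolbifene or either E2+acolbifene array, to 9 without either E2 array, to 11 without either vehicle array, to 5 with a repeated quantile normalization and to 9 with the code as a term. The E2 effect differed with acolbifene in 8 of the 115, beside 5.12% of all genes, by -1.30 in Cdkn1a, -0.89 in Myc, -0.85 in Cdc27, 0.82 in Tpx2 and -0.72 in Prc1 among the largest. Without either vehicle array, E2 array 2, acolbifene array 1 or either E2+acolbifene array 1 to 4 were called. For E2 alone, 1 of the 115 was called without either vehicle array or E2 array 2. On the single arrays limma called 0 of the 115 in each of the 9 comparisons, with 3 to 17 (2.61% to 14.8%) at an unadjusted p under 0.05, beside 3.62% to 14.1% of all genes. All differences of these named genes are from the probe set used, which for Fen1 and Kif22 is of the _x_at kind. Other probe sets of these genes are not given here.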

How the data were processed

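The authors deposited log2 values for 14 arrays, made with RMA (background correction, quantile normalization between arrays and probe summary) per the submitters' processing notes; its version is not given in the sources used here. RMA compresses weak signals. The identifiers of the 45101 probe sets are not those of the array type that the design text names. Of 45037 non-control probe sets 34945 carried 1 gene symbol by the platform annotation, 932 several and 9160 none, and none was named from the last kinds. Groups came from the sample titles; 20 ug of pooled total RNA was labelled per array.

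Tests used limma 3.58.1 under R 4.3.3 (lmFit, eBayes, Benjamini-Hochberg over 45037 probe sets, adjusted p under 0.05). The 8 arrays of the replicated groups were fitted together; comparisons with a single array used all 14 arrays and the raw-file code as a term, so those with vehicle pass through the E2 arrays and those with E2 rest on E2 array 1. Intervals are 95% intervals. The script was tested on simulated data. Members, gene lists, motifs and alternatives were chosen with earlier results of these data known, the rise of Mad2l1 among them. Named were all members, the called genes of a wider cell cycle list (at most the 5 largest) and, of the genes that were not dim, the 6 most like Mad2l1. Promoter windows are from RefSeq (GRCm38.p6). Alternatives were a second quantile normalization, dim probe sets left out, an intensity trend, the replicate number or code as a term, no code in the fit of all arrays, another probe set per gene, and each array left out.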

Additional observations from a re-analysis of the deposited data

Results flagged for a closer look

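Of the members, 3 had an effect of E2 that differed between mice with and without acolbifene, by a test of that difference in limma with 2 arrays per group. It was -1.43 for Mad2l1 (adjusted p = 0.00168), with E2 minus vehicle at 1.62 and E2+acolbifene minus acolbifene at 0.19. It was -0.68 for Mcm3 (adjusted p = 0.0469), with 0.23 and -0.45, and -0.59 for Cenpf (adjusted p = 0.0435), with 0.22 and -0.37. Other probe sets of Mcm3 gave -0.25 to 0.63 and those of Cenpf -0.22 and -0.0046, none of them called.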

How the results depend on the processing

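Mad2l1 had no probe set besides the one used, so the choice of another probe set per gene could not bear on it. In every other alternative Mad2l1 was called for E2 minus vehicle, E2+acolbifene minus E2 and the difference of the E2 effects. The log2 values were 1.54 to 1.70, -1.44 to -1.31 and -1.55 to -1.31. For acolbifene minus vehicle Mad2l1 was not called (-0.071 to 0.17 with one array left out) and turned to -0.03 without vehicle replicate 1 and to -0.071 without acolbifene replicate 1. Leaving out one array at a time gave 1 to 3 called members for E2 minus vehicle (3 in the fit reported), 1 to 2 for E2+acolbifene minus E2 (2), 0 to 4 for E2+acolbifene minus acolbifene (5), 1 to 4 for the difference of the effects (3), and 0 to 1 for E2+raloxifene minus E2 and for E2+tamoxifen minus tamoxifen (1 each). In those last comparisons Mad2l1 kept -1.20 (adjusted p up to 0.0590) and 1.17 (up to 0.0516).

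With an intensity trend in the prior the called members were 5, 1, 5, 2, 9 and 7 for E2 minus vehicle, acolbifene minus vehicle, E2+acolbifene minus E2, minus vehicle and minus acolbifene, and the difference. It also called Mad2l1, and so 1 member, for E2+fulvestrant minus E2 (-0.79, adjusted p = 0.0133) and minus fulvestrant (0.60, adjusted p = 0.0251). With dim probe sets left out there were 1 for acolbifene minus vehicle, 4 for E2+acolbifene minus E2 and 7 for the difference. Quantile normalization again gave 1, 0 and 1 for E2+acolbifene minus E2, minus acolbifene and the difference. A term for the raw-file code, in 8 or in all 14 arrays, gave 1 for E2 minus vehicle, 1, 3 and 1 for those 3. The probe set with the largest variance gave 1 for E2+acolbifene minus vehicle, 3 for minus acolbifene and 1 for the difference.

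Replicate numbers did not pair the arrays (correlations of deviations -0.12 to 0.12). With the replicate block, 1, 2 and 1 members were called for E2+acolbifene minus E2, minus acolbifene and the difference, and all genes called for E2 minus vehicle went from 719 to 582. Ccnd2 for E2 minus vehicle then had an adjusted p of 0.0549.

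With the replicate block 2, 5 and 7 of the 115 other cell cycle genes were called for those comparisons (5, 19 and 8 without it).

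Counts of genes called moved with the setting, from 229 to 1244 for E2 minus vehicle, 15 to 802 for acolbifene minus vehicle, 51 to 1412, 20 to 970 and 24 to 3944 for E2+acolbifene minus E2, minus vehicle and minus acolbifene, and 99 to 2154 for the difference. Comparisons of a single array with vehicle could not be fitted without either E2 array, nor those with E2 without E2 replicate 1. The number of arrays limits the precision, and weak signals are compressed. The causes were not tested.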

Other observations

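Of the genes that were not dim, those whose level over the 14 arrays was most like that of Mad2l1 were not cell cycle genes. Pearson's r was 0.98 for Ccn1, a matricellular protein, 0.96 for Spint1, an inhibitor of serine proteases, 0.95 for Apc, a negative regulator of Wnt signalling, 0.95 for Junb, a subunit of AP-1, 0.95 for Tmem86a and 0.94 for the kinesin Kif5c; the points share groups and raw-file codes. Junb was 8.49 and 8.62 with vehicle, 9.61 and 9.55 with E2, 8.80 and 8.62 with E2+acolbifene, 9.26 with E2+tamoxifen, 9.20 with E2+fulvestrant and 8.87 with E2+raloxifene. Kif5c was 7.16 and 7.59 with vehicle, 8.63 and 8.37 with E2, and 8.19 with E2+tamoxifen. The 6 genes were higher with E2 than with vehicle by 0.66 to 1.87 (limma adjusted p = 8e-06 to 0.00245), a comparison that shares its arrays with the likeness.

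4930544G11Rik, the gene before Mad2l1, was dim on every array (4.78 to 5.22), with 4.78 and 4.92 on the E2 arrays.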
